A study of Mus musculus with 33 samples.

Results

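Among the 20 libraries of sorted thymic epithelial cells (TEC) from 6-week-old wild-type C57BL/6 mice, 4 held transcripts of parathyroid hormone at a level far above the rest, together with transcripts of secretory granule proteins and of the cornified layer of the epidermis. These 4 Pth-high libraries were chosen by 1 measured value, as those in which Pth took more than 0.1% of all unique molecular identifiers (UMIs, each standing for 1 captured transcript), and the other 16 libraries at 6 weeks formed the comparison. The 4 are part of 33 libraries in the series. Pth took 0.389% of the UMIs in the library just inside the threshold and 0.0023% in the library just outside it. Since a measured value chose the groups, the contrast at 6 weeks is a description of these libraries, and no p-value is given for it.

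The series measured sorted cells in bulk by MARS-seq, in which transcripts are read from their 3' end and counted by UMI. Besides the 20 libraries of TEC at 6 weeks it holds 4 of TEC at embryonic days 15 and 17, 6 of TEC at postnatal day 6 under the labels mTEC1, mTEC2 and mTEC4, and 3 of dorsal skin cells labelled HFC, sorted as Foxn1.EGFP positive at 4 weeks. All mice were C57BL/6, and all TEC libraries are labelled wild type. The 6-week titles combine 5 population names (cTEC and mTEC1 to mTEC4) with 4 numbers (189, 191, 195 and 196), whose meaning, and whether they stand for separate animals or for pools, the sources used here do not give.

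The thymus and the parathyroid glands arise from a shared rudiment, the third pharyngeal pouch. Cortical TEC select thymocytes for recognition of self MHC, whereas medullary TEC, in part under the regulator Aire, transcribe genes of many peripheral tissues and display them to developing T cells. Late medullary cells can take on the features of other differentiated tissues. Among them are cornified cells that resemble the outer epidermis and can form Hassall's corpuscles, and cells with neuroendocrine, tuft or microfold features. Parathyroid hormone raises blood calcium, and chromogranins and secretogranins are the matrix proteins of the dense-core granules in which endocrine cells store such hormones.

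The titles were not used to form the groups, because markers contradict them. The 4 Pth-high libraries are titled mTEC3 191, mTEC4 191, cTEC 195 and mTEC1 195, and they stand next to each other in the deposited table. In the library titled cTEC 195 the cortical proteasome subunit Psmb11 had no UMI, which allows up to 17.8 UMIs per 1000000 (CPM). The cortical protease Prss16 stood there at 35.7 CPM, below every one of the other 16 libraries, in which it ran from 46.6 to 7678 CPM. Psmb11 was at 0 in mTEC3 191 and mTEC1 195 as well and at 6.74 CPM in mTEC4 191. Prss16 measured 17.1 CPM in mTEC3 191, 20.3 CPM in mTEC1 195 and 405 CPM in mTEC4 191, so mTEC4 191 differed from the other 3 in this gene. Foxn1, the transcription factor that defines the thymic epithelium, was present in all 4 at 114, 60.7, 29.7 and 10.1 CPM, in the order mTEC3 191, mTEC4 191, cTEC 195 and mTEC1 195 that is kept for values below. The other 16 libraries ranged from 10.4 to 313 CPM of Foxn1 around a median of 156, so the groups overlapped. The 16 are themselves a mixture of populations, as the spread of Prss16 shows, and do not stand for 1 cell type.

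Depth differed between the groups. The Pth-high libraries held 175014, 148307, 168128 and 98670 UMIs in 10594, 10902, 10177 and 8828 genes, and are the 4 shallowest of the series. The other 16 held 217794 to 1369629 UMIs in 10592 to 14854 genes. Depth and group cannot be told apart in the deposited values, so the counts of separated genes, over all genes and in the lists and gene clusters, are also given after all 20 libraries were thinned at random to 98670 UMIs. Thinning used 1 random draw, and how far the calls change between draws was not tested. Counts over the 153 higher genes themselves are at full depth. Between pairs of the 4, a chi-square test of their counts over genes gave 4.0 to 8.13 per degree of freedom, where 1.0 would mark sampling noise alone, so no pair was counted as 1 library. Repeat preparations of 1 sample can also exceed sampling noise, and whether the 4 came from separate material is not shown by this. In sorted bulk samples, fewer cells of a type and less RNA per cell cannot be told apart.

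**Figure D1:**
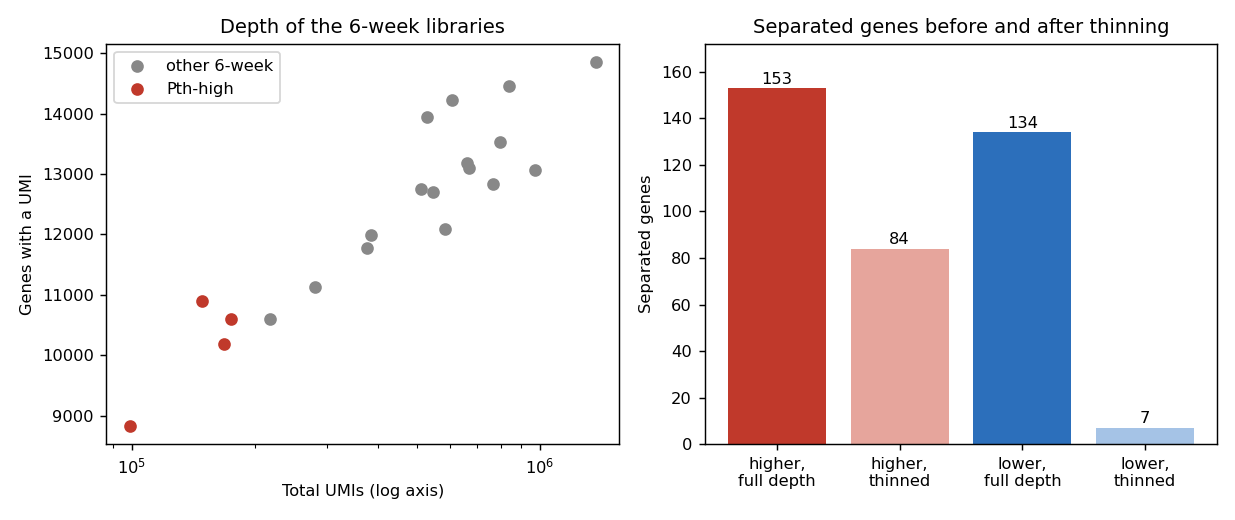
Left, number of genes with a UMI against the total UMIs (log axis) of each 6-week library, Pth-high in red and the other 16 in grey. Right, number of genes whose 4 Pth-high libraries lay wholly above or below the other 16 at 2-fold or more, at full depth and after thinning to 98670 UMIs. The higher genes went from 153 to 84 and the lower genes from 134 to 7.

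A gene was called separated where the 4 Pth-high libraries lay all above, or all below, the other 16 and the means of log2(normalized UMIs + 1) differed by 1 or more, which is 2-fold on that scale. Of 13610 genes kept, 153 were separated and higher (1.12%) and 134 separated and lower (0.985%). After thinning, 84 of 14680 genes kept were higher (0.572%) and 7 were lower (0.0477%). Thinned counts were scaled to the same median total before the filter, so fewer UMIs were needed to pass it and more genes were kept. Counts for lists and clusters after thinning are over the members kept at full depth. Of the 153 higher genes 78 were again separated and higher in the thinned counts, and of the 134 lower genes 4 were again lower. Leaving out 1 Pth-high library in turn gave 215 to 229 higher and 224 to 354 lower genes, the 354 without mTEC4 191. The median difference over all kept genes was -0.36 on the log2 scale and -0.208 after thinning, and differences below are to be read against it. The 153 genes together took 6.18 to 8.83% of the UMIs of the Pth-high libraries and 0.51 to 1.84% of the others, and 127 of them differed by 4-fold or more and 34 by 16-fold or more. Within the Pth-high group the highest library had a median of 2.26 times the lowest over these genes. Of the 153, 57 peaked in mTEC1 195, 55 in cTEC 195, 23 in mTEC4 191 and 18 in mTEC3 191. Among the other 16, the library titled mTEC2 189 was the highest for 36 of the 153. The same counts were not made over all kept genes, so these have no background to be read against. The library mTEC1 195 is also the shallowest, at 98670 UMIs.

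**Figure D2:**
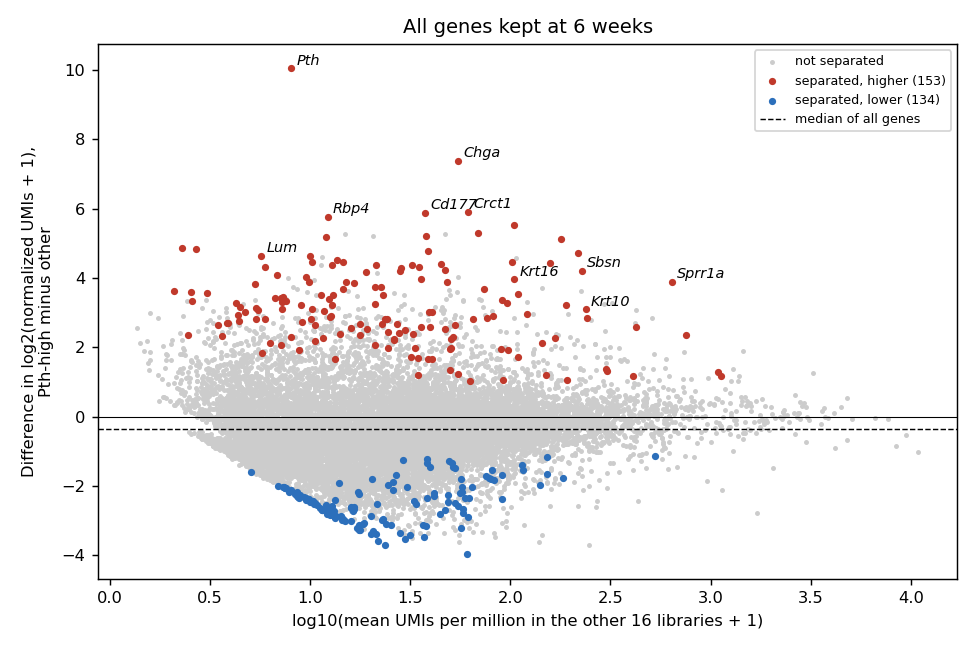
Difference in mean log2(normalized UMIs + 1), Pth-high minus other, against the log10 mean level (CPM + 1) in the other 16 libraries, for the 13610 genes kept at 6 weeks. Separated genes are coloured, and the dashed line marks the median of -0.36. Pth at 10.04 and Chga at 7.38 lie above all other genes, and many lower genes lie along the lower edge, where the Pth-high libraries hold no UMI.

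The promoters of 7 of the higher genes are shown, because they fall into the hormone and granule group and the cornified group that the results turn on. Each runs from 250 bases before to 50 bases after the start site annotated by RefSeq on GRCm38.p6, 5′ to 3′ on the gene's strand. Capitals mark matches to the AP-1 motif TGANTCA, the cyclic AMP response motif TGACGTNA or the TATA motif TATAAA, each searched on both strands.
Pth, chr7:113388524-113388823, minus strand: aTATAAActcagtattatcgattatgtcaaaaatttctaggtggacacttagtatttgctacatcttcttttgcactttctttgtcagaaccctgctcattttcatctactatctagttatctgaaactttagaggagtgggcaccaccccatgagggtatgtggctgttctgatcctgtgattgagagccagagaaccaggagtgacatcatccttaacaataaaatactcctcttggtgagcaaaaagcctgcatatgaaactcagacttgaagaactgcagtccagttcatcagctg
Chga, chr12:102554691-102554990, plus strand: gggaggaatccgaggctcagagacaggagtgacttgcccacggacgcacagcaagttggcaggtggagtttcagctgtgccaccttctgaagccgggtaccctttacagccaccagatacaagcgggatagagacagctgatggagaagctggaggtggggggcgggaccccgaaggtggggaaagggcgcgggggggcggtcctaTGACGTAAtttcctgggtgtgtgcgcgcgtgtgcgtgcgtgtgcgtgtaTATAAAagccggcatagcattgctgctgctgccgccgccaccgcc
Chgb, chr2:132781392-132781691, plus strand: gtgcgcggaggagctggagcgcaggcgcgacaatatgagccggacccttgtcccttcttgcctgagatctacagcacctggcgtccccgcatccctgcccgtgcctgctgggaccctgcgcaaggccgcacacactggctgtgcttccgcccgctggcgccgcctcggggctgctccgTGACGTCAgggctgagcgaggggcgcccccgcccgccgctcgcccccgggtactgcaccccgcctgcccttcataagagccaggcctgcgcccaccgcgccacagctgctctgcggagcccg
Scg2, chr1:79439977-79440276, minus strand: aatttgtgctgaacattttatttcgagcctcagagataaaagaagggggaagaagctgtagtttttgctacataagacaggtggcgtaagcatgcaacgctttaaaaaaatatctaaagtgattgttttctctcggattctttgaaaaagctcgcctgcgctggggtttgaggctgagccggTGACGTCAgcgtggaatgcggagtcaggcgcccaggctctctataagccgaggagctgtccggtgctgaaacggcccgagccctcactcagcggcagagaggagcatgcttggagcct
Sprr1a, chr3:92485832-92486131, minus strand: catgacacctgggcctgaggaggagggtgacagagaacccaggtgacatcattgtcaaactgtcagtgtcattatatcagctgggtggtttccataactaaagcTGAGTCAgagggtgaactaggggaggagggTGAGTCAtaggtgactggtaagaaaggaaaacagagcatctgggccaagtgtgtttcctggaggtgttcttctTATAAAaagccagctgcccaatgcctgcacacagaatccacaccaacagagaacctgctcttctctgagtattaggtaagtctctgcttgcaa
Ivl, chr3:92573686-92573985, minus strand: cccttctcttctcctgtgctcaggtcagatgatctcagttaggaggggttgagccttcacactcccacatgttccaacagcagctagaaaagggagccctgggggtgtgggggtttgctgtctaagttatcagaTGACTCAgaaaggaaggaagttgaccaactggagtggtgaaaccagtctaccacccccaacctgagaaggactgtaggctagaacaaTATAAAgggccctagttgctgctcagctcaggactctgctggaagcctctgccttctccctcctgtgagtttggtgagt
Sbsn, chr7:30751221-30751520, plus strand: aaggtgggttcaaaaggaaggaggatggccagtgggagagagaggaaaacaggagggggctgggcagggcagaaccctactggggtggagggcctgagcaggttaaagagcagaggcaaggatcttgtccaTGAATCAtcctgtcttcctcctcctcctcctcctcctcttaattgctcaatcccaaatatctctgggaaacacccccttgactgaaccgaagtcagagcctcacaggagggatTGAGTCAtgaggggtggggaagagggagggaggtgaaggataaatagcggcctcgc

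AP-1 is the Fos and Jun dimer that acts on many keratinocyte genes, and the cyclic AMP response motif is bound by CREB family factors. The granule genes Chga, Chgb and Scg2 each held 1 response motif and no AP-1 match, whereas Scg3, the other of the 4 higher neuroendocrine genes with a RefSeq promoter, held neither. Sprr1a and Sbsn each held 2 AP-1 matches and Ivl held 1, and these 3 held no response motif. They were chosen for display with the matches known: of the 15 higher envelope, keratin and protease genes with a promoter, 6 held an AP-1 match (40%) and none a response motif, and Krt10, Cnfn, Asprv1 and Klk7 were among those without either. The Pth window held neither, only 1 TATA match at its distal end. RefSeq promoters were found for 115 of the 153 higher genes, and 19 of these (16.5%) held an AP-1 match, beside 7.01% of all kept genes with a promoter. The response motif was found for 5 of the 115 (4.35%), beside 5.12%. The TATA motif was found for 19 (16.5%), beside 10.1%. Among all 32851 RefSeq promoters of this length, 7.81% held the AP-1 motif, 2.93% the response motif and 13.6% the TATA motif. A match describes letters in the window and is not evidence of a bound site.

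Parathyroid hormone and chromogranin A were the genes with the largest differences. Pth (chromosome 7, 113385580 to 113388570 on GRCm38, minus strand) stood at 6565, 3891, 13890 and 4135 CPM in the Pth-high libraries, a mean of 7120 ± 4671 (SD, n = 4). In the other 16 it ranged from 0 to 23.0 CPM around a median of 5.17, with no UMI in 4 of them. The lowest Pth-high library was thus above the highest other library by the rule, and cTEC 195 had 3.57 times the level of mTEC4 191. The counts behind these shares were 4469 UMIs of Pth in the 4 libraries and 69 in the 16, although the 16 hold far more UMIs in total. Chga (chromosome 12, 102554969 to 102565028, plus strand) measured 5571, 4774, 9630 and 5341 CPM, against 1.03 to 174 CPM with a median of 37.7 in the others. The groups did not overlap, and cTEC 195 was again the highest of the 4. The log2 difference was 10.04 for Pth and 7.38 for Chga.

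Other granule proteins were higher with them. Chromogranin B (Chgb) stood at 280, 148, 506 and 365 CPM, where the others reached at most 34.7. Secretogranin II (Scg2) stood at 354, 169, 107 and 203 CPM, where the others reached at most 37.7. Both genes were separated, by 5.17 and 4.36 on the log2 scale, but cTEC 195 was the highest of the 4 in Chgb and the lowest in Scg2. Scg3, a further secretogranin, and Snap25, which serves the fusion of granules with the cell membrane, were separated at levels near the floor of these libraries. Scg3 lay between 20.3 and 35.7 CPM against at most 7.3, and Snap25 between 13.5 and 101.3 CPM against at most 11.3. Neither remained separated after thinning.

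Of 19 neuroendocrine genes kept, 5 were higher (1.12% of all genes were) and none lower, and 3 of the 5 were higher also after thinning (0.572% of all genes). All 19 had differences above 0, with a list median of 2.22 against -0.36 over all genes. The list was not uniform. Resp18, an endocrine granule protein, was at 526, 668, 565 and 426 CPM, but the others reached 533 and overlapped with it. Insm1, a neuroendocrine transcription factor, was at 74.3 to 253 CPM inside a range that reached 335.

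No hormone other than Pth in the lists was separated. Of 20 peptide hormone genes none was separated in either direction, and their median difference was 0.18. Iapp, which encodes amylin, had the largest of these differences, 2.69, at 491, 47.2, 208 and 182 CPM against at most 167. Sst, which encodes somatostatin, was at 1301 CPM in mTEC4 191 and had no UMI in the other 3, so 1 library carried it.

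Genes of the parathyroid gland itself were measured at low levels. Gcm2, the transcription factor that specifies the parathyroid, was at 45.7, 6.74, 5.95 and 0 CPM, which rests on a few UMIs per library, and at no more than 1.19 CPM in the others. It was too low overall to be kept. Casr, the calcium-sensing receptor that restrains hormone release, measured 97.1, 60.7, 137 and 70.9 CPM, and the highest other library had 67.4. The groups overlapped for Casr through mTEC4 191 alone. Gata3, which acts with Gcm2 in the gland, was at 11.4 to 67.4 CPM and overlapped. Of 14 parathyroid genes kept, Pth and Chga were the 2 separated (1.12% of all genes were higher), both also after thinning (0.572% of all genes). For Pth this follows from the rule that chose the groups. The list median was 0.38 against -0.36 over all genes.

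**Figure D3:**
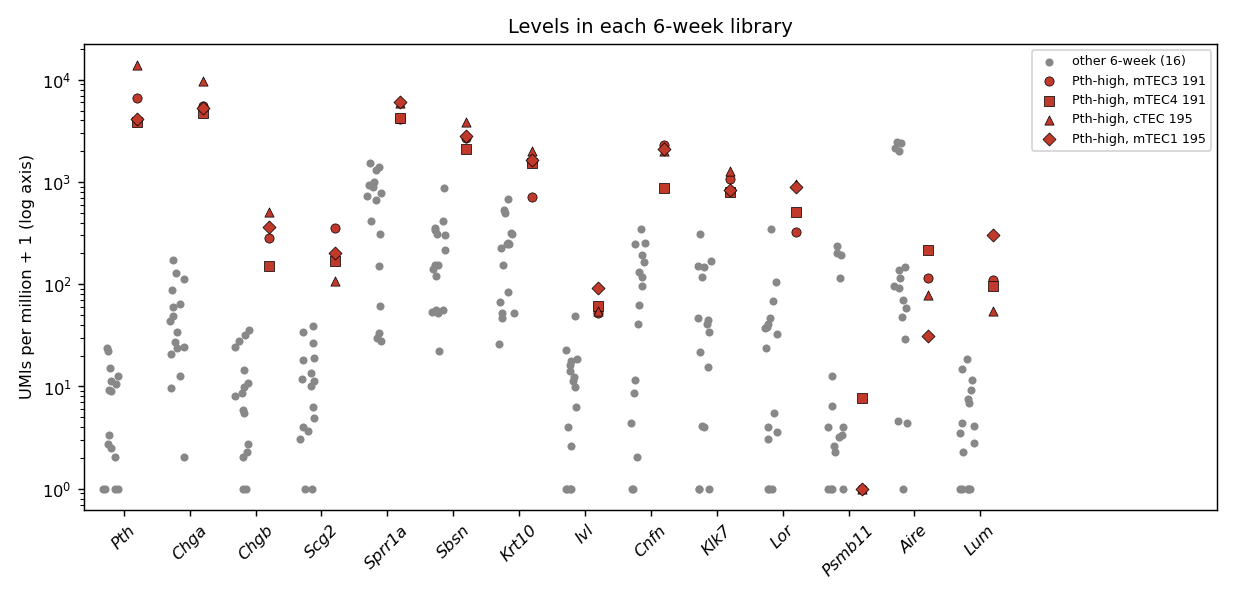
Level of 14 genes in every 6-week library, as CPM + 1 on a log axis, with the 4 Pth-high libraries in red, one symbol each, and the other 16 in grey. Pth, Chga, Chgb, Scg2, Sprr1a, Sbsn, Krt10, Ivl, Cnfn, Klk7 and Lum do not overlap between the groups, whereas Lor, Psmb11 and Aire do.

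Cornified envelope genes gave the largest number of separated genes, in the list with the most kept members. By share, the mesenchymal list (3 of 8) and the protease list (8 of 25) stood above them. Cornified envelope genes encode the proteins that keratinocytes crosslink beneath the membrane as they die and flatten. Of 29 kept, 9 were separated and higher (1.12% of all genes were), 7 of them after thinning as well (0.572% of all genes), none was lower, and 27 had a difference above 0. Their median difference was 2.67, and their summed level was 13216 to 21240 CPM in the Pth-high libraries against 127 to 5853 CPM in the others.

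Sprr1a, a small proline-rich envelope protein, stood at 4160, 4181, 5972 and 6050 CPM against 26.8 to 1521 CPM, a log2 difference of 3.88. Suprabasin (Sbsn) was at 2703, 2090, 3819 and 2838 CPM against 21.3 to 874 CPM, a log2 difference of 4.20. Cornifelin (Cnfn) was at 2320, 877, 1998 and 2108 CPM against 0 to 344 CPM. All 3 were abundant in each of the 4 libraries and did not overlap, with mTEC4 191 lowest in Sbsn and Cnfn. Crct1 (cysteine-rich C-terminal 1), at 1457, 1416, 1309 and 1206 CPM against 0 to 442 CPM, varied least among the abundant genes, with 1.21 times between its highest and lowest Pth-high library.

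Of the envelope genes that did not separate, 2 kinds are described here, and the remaining members are not. Loricrin (Lor), the main mass of the envelope, was at 320, 513, 964 and 902 CPM, and only because 1 other library reached 345 did the groups overlap. Its log2 difference was 5.28, larger than those of most separated genes. Keratinocyte differentiation-associated protein (Krtdap), at 2228, 910, 3105 and 1105 CPM, overlapped through a library at 1047 in the same way. Sprr2h, Lce3a and Lce3c instead differed from library to library. Sprr2h stood at 418 CPM in mTEC4 191 and at 17.1, 5.95 and 0 in mTEC3 191, cTEC 195 and mTEC1 195. Lce3a was at 233 CPM in mTEC1 195 and at 0 in the other 3, and Lce3c was at 232 CPM in cTEC 195 and 0 to 70.9 in the other 3. Members of the Sprr2 and Lce3 families are near copies of each other. Whether the counting divided 3' reads among them was not tested.

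Keratins of the upper epidermis followed. Krt10, the keratin of the suprabasal layers, was at 714, 1531, 1987 and 1652 CPM against 24.9 to 684 CPM. Krt16, a keratin of activated and hair follicle epidermis, was at 600, 654, 898 and 1095 CPM against 0 to 312 CPM. Together with Krt80 they were the 3 of 15 keratins separated (1.12% of all genes were higher), and Krt80 was not separated after thinning, which left 2 (0.572% of all genes). Krt1, the partner of Krt10, was at 74.3, 182, 315 and 446 CPM and overlapped with a library at 144. Krt13, of moist epithelia such as the oral mucosa, had no UMI in any of the 4, and Krt5 and Krt14, of the basal layer, lay inside the range of the others with log2 differences of -0.09 and -0.44.

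Proteases of the cornified layer, which cut the contacts between dead cells and process filaggrin, were the next group, with 8 of 25 higher (1.12% of all genes were), 6 of them after thinning (0.572% of all genes), and a median of 2.4 against -0.36 over all genes. Kallikrein 7 (Klk7), which digests corneodesmosomes, stood at 1074, 789, 1291 and 841 CPM against 0 to 306 CPM. Klk6 was at 383, 256, 1154 and 405 CPM against 0 to 155 CPM. Asprv1, the aspartic protease that cleaves profilaggrin, was at 2194, 2636, 1880 and 2149 CPM against 0 to 655 CPM. In these 3 genes, with log2 differences of 5.31, 5.20 and 4.73, every Pth-high library exceeded every other library. Klk13, Klk8, Prss8, Prss22 and Prss27 were also separated, Klk8 and Prss22 not after thinning. Spink5, the inhibitor of these kallikreins, was at 109, 108, 351 and 294 CPM and overlapped with a range reaching 169.

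Upstream and structural parts of the same tissue showed less than the envelope, keratin and protease lists. The counts below stand beside 1.12% of all genes higher at full depth and 0.572% after thinning. Of 14 crosslinking and desmosome genes, Ppl (periplakin) alone was separated, by 1.99 and not after thinning, with a list median of 0.43. Corneodesmosin (Cdsn) was at 80.9 to 223 CPM and overlapped with a library at 84.0, and was separated after thinning. Of 13 barrier lipid genes only Aloxe3, a lipoxygenase, was separated, and of 23 regulators of keratinocyte differentiation only Hopx, at 349, 209, 470 and 517 CPM against 4.59 to 177 CPM. Neither was separated after thinning. Trp63, the p63 gene needed for basal epithelial cells, was at 34.3, 6.74, 0 and 0 CPM against 1.96 to 243, and overlapped.

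Small surface and immune proteins of barrier epithelia were also high. Ly6d was at 1543, 1827, 2070 and 2017 CPM against 55.1 to 919 CPM, and Slurp1, a secreted relative, was separated at full depth but not after thinning. Il1f6 and Il1f5, the genes of the epidermal cytokine IL-36α and of the IL-36 receptor antagonist, were both separated, by 4.64 and 4.47. Il1f6 was at 114, 148, 178 and 274 CPM against at most 32.6. Il1f5 was at 40.0, 175, 214 and 365 CPM against at most 31.4. Both were still separated after thinning, as the 2 of 9 in their list (1.12% of all genes were higher, and 0.572% after thinning).

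**Figure D4:**
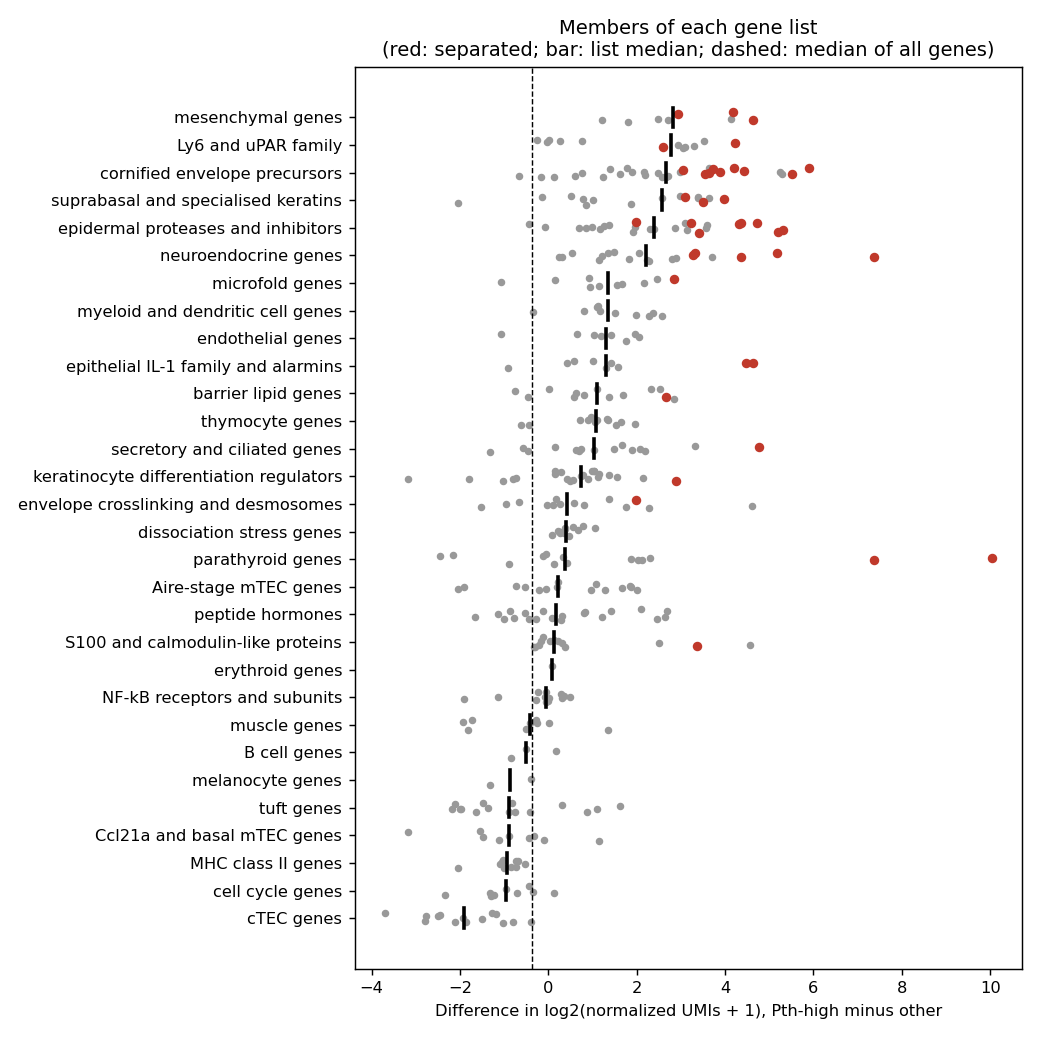
Horizontal axis, difference in mean log2(normalized UMIs + 1), Pth-high minus other, for each kept member of the 30 gene lists. Red points are separated genes, black bars the list medians and the dashed line the median of all genes, -0.36. Mesenchymal, Ly6, cornified, keratin, protease and neuroendocrine lists have medians from 2.22 to 2.82, and the cTEC list is lowest at -1.90.

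Several higher genes lie in known gene clusters, which were picked after their values were seen. In the epidermal differentiation complex, taken as S100a6 to S100a11 on chromosome 3 (90612882 to 93526287, GRCm38), 6 of 50 kept genes were higher (12%), namely Crct1, Flg2, Hrnr, Ivl, Rptn and Sprr1a, against 1.12% of all genes. After thinning Flg2 and Rptn were not separated and 4 remained, where 0.572% of all genes were higher. In the kallikrein cluster from Klk1 to Klk14 on chromosome 7 (43690418 to 44229618), 5 of 25 were higher (20%), and all but Klk8 remained so after thinning. In both intervals nearly all genes had a difference above 0, 44 of 50 and 24 of 25, with medians of 1.87 and 1.76. The type I keratins between Krt10 and Krt16 on chromosome 11 (99385254 to 100248902) had 2 of 15 higher, both also after thinning, and a median of 0.07, and 8 of the 15 had a difference above 0. Neighbouring genes are not independent of each other, and of the 151 higher genes with a position, 34 had another within 200000 bases. The same count was not made for all kept genes, so it has no background to be read against.

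Among the 15 genes with the largest differences were several outside these groups. Cd177, a surface protein known from neutrophils, stood at 1434, 769, 1535 and 618 CPM against 0 to 115 CPM. Rbp4, the carrier of retinol in plasma, was at 206, 384, 488 and 314 CPM against 0 to 44.5 CPM. Fam25c was at 1823, 1585, 3027 and 2848 CPM against 0 to 586 CPM. These 3 did not overlap, with log2 differences of 5.88, 5.76 and 5.13. Clca3b, Acp7 and Speer4c were also among them, the last in a family of near copies.

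Over the 20 libraries, the genes whose levels ranked most like Pth by Spearman's rho were Abca8a (0.745), Pi4ka (0.740), Itih5 (0.738), Gm13889 (0.732) and Rasgrp2 (0.726). None of the 5 exceeded 142 CPM in a Pth-high library. All 20 points share the depth difference between the groups, and low genes share their zeros, so these values only describe ranks.

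Genes of the lymphoid-supporting epithelium were not separated. Of 14 cTEC genes none was separated, and all 14 had a difference below 0, with a median of -1.90. Of 15 Aire-stage genes none was separated. Aire stood at 114, 216, 77.3 and 30.4 CPM, inside the range of 0 to 2486 CPM of the others, and Fezf2, a second regulator of tissue antigens, at 411, 384, 286 and 152 CPM inside 4.59 to 1497. The 10 MHC class II genes all had a difference below 0, with a median of -0.93 and no separation. H2-Aa, for example, was at 3611, 4450, 2552 and 2706 CPM, within 1285 to 25560 in the others. Of 15 tuft genes and 9 muscle genes none was separated. Of 10 microfold and 15 secretory or ciliated genes 1 each was higher (1.12% of all genes were), Pglyrp1 and Clca3b. Both were so after thinning as well (0.572% of all genes).

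Markers of non-epithelial cells were present and in part moved with the group. Of 8 mesenchymal genes 3 were separated and higher, Lum, Col3a1 and Pdgfra (1.12% of all genes were), of which Lum remained so after thinning (0.572% of all genes), and all 8 had a difference above 0 with a median of 2.82. Lumican (Lum), a proteoglycan of connective tissue, was at 109, 94.4, 53.5 and 304 CPM against at most 17.8, and Col3a1 at 234, 270, 65.4 and 497 CPM against at most 57.7. The summed mesenchymal level was 755 to 3730 CPM in the Pth-high libraries and 46.2 to 1748 CPM in the others, with cTEC 195, the highest in Pth, lowest in Lum and Col3a1 and mTEC1 195 highest in both. None of the 8 endothelial, 10 myeloid and 12 thymocyte genes was separated, with medians of 1.30, 1.35 and 1.08. Their summed levels were 184 to 1226, 783 to 1561 and 223 to 636 CPM, against 36.6 to 533, 55.1 to 1840 and 38.9 to 860 CPM in the others. No defining gene of the mesenchymal, endothelial or myeloid lists was at 0 in all 4. The part of these cells in the contrast was not tested. The 12 dissociation stress genes summed to 7599 to 18516 CPM against 3627 to 17879 CPM. None was separated, and all 12 had a difference above 0, with a median of 0.39 against -0.36 over all genes.

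Many of the lower genes had no UMI in part or all of these shallow libraries. Of the 134, 64 had no UMI in any Pth-high library and 84 had none in at least 2. Of the 15 with the largest lower difference, 8 (Dcp2, Rpp38, E2f6, Slc23a2, Ssh2, Fgfr1op, Arl1 and Mtch2) had no UMI in all 4, where a pooled count of 0 allows up to 5.08 CPM. For Dcp2, a decapping enzyme, the others ranged from 7.96 to 42.4 CPM with a median of 22.4, at least 4.42-fold higher at the median than that floor. Amot, a regulator of Hippo signalling, had the largest difference, -3.97, with UMIs in mTEC1 195 alone at 20.3 CPM against 20.6 to 228. None of the 15 remained separated after thinning. The 4 lower genes that did were Snapin, Dcaf13, Set and Aplp2. Snapin, which binds the fusion machinery of vesicles, was at 22.9, 6.74, 11.9 and 30.4 CPM against 64.4 to 114, and Aplp2, a relative of the amyloid precursor, at 331, 263, 309 and 112 CPM against 395 to 681. No member of any of the 30 lists was separated and lower.

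The day 6 libraries were not used by the rule, and there the 153 genes could be tested. Each label, with 2 libraries, was compared with the mean of the other 2 in limma, with Benjamini-Hochberg adjustment over 11543 genes, and 114 of the 153 were kept. None of Pth, Chga, Sprr1a, Sbsn and Krt10 passed for any label. Pth was at 38.9 and 0 CPM in mTEC4, 10.97 and 0 in mTEC1 and 0 in both mTEC2 libraries, far below the 6-week group, and its log2 change in mTEC4 was 1.55 ± 1.17 (SE, adjusted p = 0.495). Chga was at 132 and 10.4, 61.1 and 40.3, and 15.4 and 11.96 CPM, in the same order.

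In mTEC2, 9 of the 114 were called higher (7.89%), where 4.34% of all genes were, and 1 lower (0.877%), where 3.5% were. The 9 were Arg1, C2cd4b, Calml3, Clu, Fxyd3, Nupr1, Pdzk1ip1, Qsox1 and Septin5. Pdzk1ip1, a small membrane protein, was at 222 and 149 CPM against 0, 0, 54.8 and 3.51, a log2 change of 5.06 ± 0.87 (SE, adjusted p = 0.00711). Clu, the secreted chaperone clusterin, was at 908 and 849 CPM against 254 to 423, a log2 change of 1.40 ± 0.26 (SE, adjusted p = 0.0101). In both genes the 2 libraries lay above the other 4. edgeR's quasi-likelihood test on the recovered UMIs also called 9 higher, 7 of them the same, with Ece1 and Pglyrp1 in place of Calml3 and Qsox1 (edgeR adjusted p of 0.0621 and 0.0536 for the last pair). DESeq2 called 8 of 97 tested, not among them Pdzk1ip1 (DESeq2 adjusted p = 0.0759). Over all genes edgeR called 316 of 11476 higher and DESeq2 323 of 10363. The limma count changed when 1 of several day 6 libraries was left out, which left its label with 1 library, and so did the calls over all genes. With a pseudocount of 5 limma called 17, where 1088 of all genes were called in either direction, beside 905 in the main fit. With a filter at a mean of 10 it called 5, where 610 of all genes were. It called 0 in a fit of the day 6 libraries alone, where 163 of all genes were and the adjusted p was 0.0538 for Pdzk1ip1 and 0.0687 for Clu. Both kept their call whichever 1 day 6 library was left out.

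In mTEC4, none was called higher by limma (0.45% of all genes were), and 6 had an unadjusted p below 0.05 in that direction. Here edgeR called 0 higher, beside 32 of 11476 over all genes, and DESeq2 1 of 90, beside 45 of 9028. Members were called higher by limma without the first or without the second mTEC2 library, which left mTEC2 with 1 library. The calls over all genes rose there as well. Of the 114, 11 were called lower (9.65%, against 2.32% of all genes), among them Krt16, Asprv1 and Fam25c, and each of these lost its call when 1 of several libraries was left out (limma adjusted p without the second mTEC4 library of 0.126, 0.0526 and 0.0568). In this direction edgeR called 1, Asprv1 (adjusted p = 0.0272), and DESeq2 3, beside 42 of 11476 and 77 of 9028 over all genes. Asprv1 was at 12.96 and 27.9 CPM in mTEC4 against 112 to 356 in the other 4. Krt16 and Fam25c had an edgeR adjusted p of 0.128 and 0.0661. In mTEC1, 2 were called higher (1.75%, against 2.02% of all genes), Crct1 with a log2 change of 3.34 ± 0.77 (SE, adjusted p = 0.0451) and Klk6 with 3.38 ± 0.74 (SE, adjusted p = 0.0369), and 3 lower (2.63%, against 1.11%). By edgeR the adjusted p was 0.00498 for Crct1 and 0.0932 for Klk6. In a limma fit of the day 6 libraries alone neither passed (adjusted p of 0.124 for Crct1 and 0.169 for Klk6). Neither kept its limma call when either mTEC4 or either mTEC1 library was left out, which left that label with 1 library. The log2 change was then 2.2 to 4.5 for Crct1 and 2.6 to 4.2 for Klk6. The calls of the 114 and of all genes changed as well when an mTEC1 or mTEC2 library was left out. Nothing in the labels says that the 2 libraries of a label came from separate animals, so these p-values may measure technical spread.

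The skin cells labelled HFC held part of the cornified genes, as values side by side without a test. Of the 29 envelope genes kept, the HFC mean was above every other 6-week library for 9 and above the Pth-high mean for 5, and 9 had no UMI in HFC. Of the 25 proteases and inhibitors it was above every other 6-week library for 10 and above the Pth-high mean for 10. Of the 19 neuroendocrine genes it was so for 1 each, and 13 had no UMI. Sbsn was at 5743, 5070 and 5535 CPM, Klk7 at 3141, 2286 and 2250 CPM and Klk6 at 1607, 2256 and 1419 CPM, each above all 4 Pth-high libraries. Of the 5 rule markers the HFC mean was above the Pth-high mean for 3, the cornified markers Sprr1a, Sbsn and Krt10. Pth was at 0, 1.56 and 0 CPM and Chga at 21.1, 3.12 and 1.47 CPM. Cd177 and Scg2 were at or near 0 in all 3. Of the 153 genes, the HFC mean was above the Pth-high mean for 31, above every other 6-week library for 52, and 0 in all HFC libraries for 30. The share of all kept genes that meet these conditions was not counted, so the HFC counts have no background to be read against. Embryonic TEC exceeded the Pth-high mean for 2 genes at E15 and 1 at E17, and held Pth at 12.9 to 23.9 CPM.

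**Figure D5:**
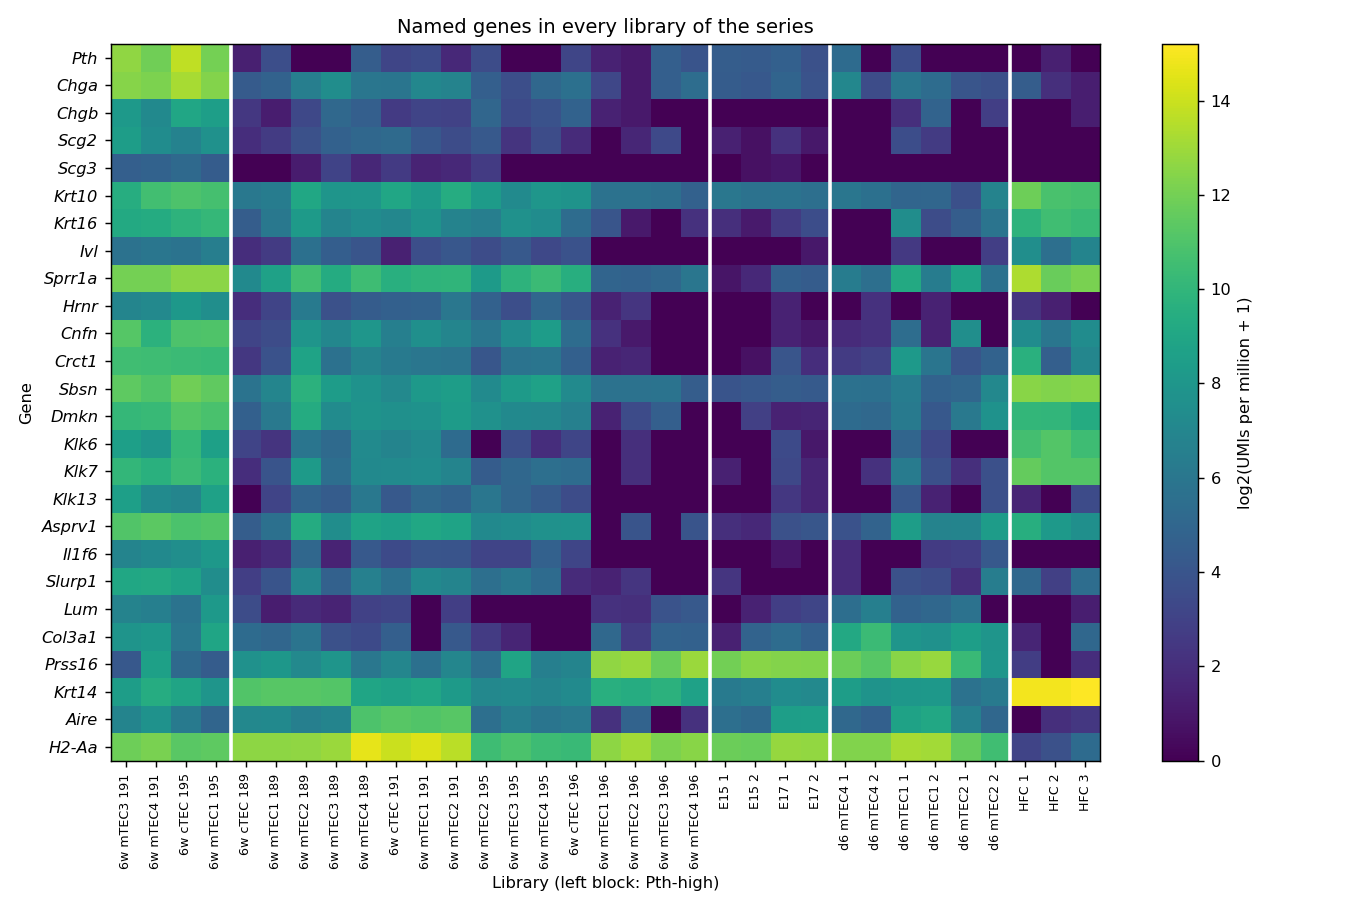
Level of 26 named genes, as log2(CPM + 1), in all 33 libraries in the order of the deposited table within each block, with white lines between the Pth-high, other 6-week, embryonic, day 6 and HFC libraries. Pth, Chga, Chgb and Scg2 are high in the left block alone among these, and Sprr1a, Sbsn, Krt10, Klk6 and Klk7 are high in the left block and in HFC.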

How the data were processed

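The authors deposited 1 table of signal values for 15273 genes in 33 libraries, in which every library sums to 100, so a value is a share of UMIs in percent. The submitters' processing notes name the build mm10, the aligner STAR 2.4.2a, HTSeq and, with no role given, DESeq2, cutadapt and bcl2fastq. In 33 of 33 libraries the nonzero values were whole multiples of 1 step (within 0.01), which gave the UMIs. CPM stands for UMIs per 1000000. Counts of 0 allow up to 3 UMIs, and floors cover counting error only.

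Differences were computed on log2(normalized UMIs + 1), scaled to the median total of 570253, for genes with at least 5 in 2 or more libraries. That scale understates changes of low genes. Day 6 and embryonic libraries were fitted together in limma 3.58.1 (intensity trend, two-sided, adjusted p below 0.05). edgeR 4.0.16 and DESeq2 1.42.0 were run on the recovered UMIs, without the second E17 library, whose step could not be told from rounding. The separation rule and the limma fit for the day 6 mTEC4 label were tested on simulated data with known changes, and the other steps were not. The recovery of these changes is not given here. In the simulated 6-week data the other libraries shared a common mean per gene, whereas the real ones are a mixture of populations. Alternatives were pseudocounts of 0.5 and 5, no filter, a mean of 10, median of ratios scaling, Pth thresholds of 0.05 and 0.2%, thinning, blocks on the numbers and leaving out libraries.

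The members, the 31 gene lists and the tests were chosen with earlier results of these data known. Genes named are the rule markers, Foxn1, Psmb11, Prss16, Aire, the 15 largest differences each way without predicted genes, up to 5 separated members per list, members described with a list, and the 5 nearest to Pth by rho. Genes named with day 6, with an interval or after thinning were chosen after their values were seen. Positions are from GENCODE M21 (GRCm38). Calculations were made in R 4.3.3 and in Python 3.11.15 with pandas 2.3.3, numpy 2.4.6 and scipy 1.17.1, and figures with matplotlib 3.10.9.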

Additional observations from a re-analysis of the deposited data

Results flagged for a closer look

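In 7 of 62 named genes, 1 of the 4 Pth-high libraries stood apart from the other 3, as the gap to its neighbour divided by the range of the 4 was above Dixon's 95% critical value for 4 samples. For normally distributed values chance flags about 1 in 20 such groups. That rate does not hold where 3 of the 4 libraries have no UMI, since the ratio is then 1.0 by construction. For Cnfn the ratio was 0.847, with mTEC4 191 low at 877 CPM beside 1998 to 2320. In the others it was 1.0, because 3 libraries had no UMI and 1 held 1 UMI (Lrp6, Supt3, Patj and Psmb11) or 2 (Klhl18 and Amot). The library with UMIs was mTEC4 191 for Lrp6, Supt3 and Psmb11, mTEC3 191 for Klhl18 and Patj, and mTEC1 195 for Amot.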

How the results depend on the processing

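The 153 higher genes numbered 123 to 165 under both pseudocounts, no filter, a mean of 10, median of ratios scaling and 4-fold, 84 after thinning, and 215 to 229 when 1 Pth-high library was left out. The 134 lower genes numbered 103 to 136, except 61 at a mean of 10 and 7 after thinning, and 224 to 354 when a library was left out (354 without mTEC4 191). With a replicate block within the numbers 191 and 195 the counts were 469 higher and 786 lower, since fewer libraries had to be cleared (the numbers come from titles whose population names the markers contradict, so the block may group other libraries than intended), and higher genes were 37.4% of those separated instead of 53.3%; they were 92.3% after thinning and 66.8% at a mean of 10. Thresholds of 0.05 and 0.2% gave the same 4 libraries. At day 6, 361, 905 and 320 genes were called for mTEC1, mTEC2 and mTEC4. With day 6 alone they were 24, 163 and 6. For mTEC2 edgeR called 480 and DESeq2 501. For mTEC4 edgeR called 74, DESeq2 122, a mean of 10 gave 190 and the replicate block 205. Leaving out each day 6 library gave 0 to 1745, 487 to 2687 and 72 to 1623, the highest each time without the first mTEC2 library and 0 without either mTEC1 library. Same-numbered day 6 libraries did not deviate together (r of -0.006, 0.017 and 0.042). Of 791 values of named 6-week genes under alternatives, 162 moved by more than 1 SD of the Pth-high libraries and none that was separated changed sign. The cause of these shifts was not tested, apart from the fewer samples or UMIs that an alternative by its construction holds.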
